A study of Homo sapiens with 2 samples.

Results

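The claudins described here are the 10 genes CLDN1, CLDN2, CLDN3, CLDN4, CLDN7, CLDN10, CLDN12, CLDN15, CLDN18 and CLDN23, taken by symbol from a table of 31845 Ensembl genes. All 10 had a row in the table, which holds 17 claudin genes. RNA sequencing had been done on 1 library of Capan-1 cells made resistant to the PARP inhibitor olaparib and 1 library of the parental Capan-1 cells. The resistant cells had been exposed in steps to olaparib from 15 nM to 128 uM, and both came from the same purchased line, which carries a mutant BRCA2 gene and derives from a pancreatic adenocarcinoma, while the cell type label reads breast cancer. The labels do not say whether the resistant cells are 1 clone or a pool, nor whether olaparib was present at harvest. In the deposited table, columns headed with the cell line were read as parental and the others, whose heading the labels do not spell out, as resistant; every direction below rests on that reading. BRCA2, whose amplification the series title names, had 7585 counts in resistant cells and 1381 in parental cells.

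Claudins are membrane proteins that span the membrane several times and form the strands of tight junctions, the seal between neighbouring epithelial cells. Which claudins a cell makes sets how tight the seal is and which ions pass it: some close the space between cells and some line pores. In the gut the set differs by region, with CLDN18 typical of the stomach lining and the pore formers CLDN2 and CLDN15 typical of the intestine, while CLDN1, CLDN3, CLDN4, CLDN7 and CLDN12 are found in many epithelia.

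The 10 genes were compared as gastric claudins (CLDN18 and CLDN23), intestinal claudins (CLDN2 and CLDN15), general epithelial claudins (CLDN1, CLDN3, CLDN4, CLDN7 and CLDN12), and CLDN10, which was put in no class. The promoter windows of CLDN18 and CLDN2 are shown because these were the members at least 2-fold lower in the resistant library. The downstream window of CLDN7 is shown because it held the most motif matches. Each window runs from 250 bases before to 50 after a transcript start on the gene's own strand, 5′ to 3′, from RefSeq (GRCh38.p14). Capitals mark matches on either strand to TTTAT, the core bound by CDX factors, to AGATAA, a core bound by GATA factors, and to CAGGTG, an E-box bound by SNAI and ZEB factors.
CLDN18, upstream start, chr3:137998566-137998865, plus strand: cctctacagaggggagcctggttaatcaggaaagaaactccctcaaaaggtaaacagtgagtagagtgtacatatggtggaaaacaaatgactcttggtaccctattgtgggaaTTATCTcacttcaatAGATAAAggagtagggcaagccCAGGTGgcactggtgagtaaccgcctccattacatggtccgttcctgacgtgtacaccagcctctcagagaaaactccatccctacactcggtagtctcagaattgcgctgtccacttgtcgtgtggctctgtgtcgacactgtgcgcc
CLDN18, downstream start, chr3:138009915-138010214, plus strand: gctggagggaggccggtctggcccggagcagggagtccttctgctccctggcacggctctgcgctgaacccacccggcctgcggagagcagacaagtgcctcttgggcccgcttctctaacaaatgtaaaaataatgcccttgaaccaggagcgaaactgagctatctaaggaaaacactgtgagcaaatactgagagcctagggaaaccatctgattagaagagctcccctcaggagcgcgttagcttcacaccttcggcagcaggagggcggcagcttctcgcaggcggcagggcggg
CLDN2, upstream start, chrX:106899914-106900213, plus strand: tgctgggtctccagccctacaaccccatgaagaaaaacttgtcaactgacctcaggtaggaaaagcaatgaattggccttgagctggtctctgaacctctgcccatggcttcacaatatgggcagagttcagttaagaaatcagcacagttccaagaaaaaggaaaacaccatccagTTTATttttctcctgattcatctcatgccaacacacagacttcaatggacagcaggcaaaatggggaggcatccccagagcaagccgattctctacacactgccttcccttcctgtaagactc
CLDN2, downstream start, chrX:106918110-106918409, plus strand: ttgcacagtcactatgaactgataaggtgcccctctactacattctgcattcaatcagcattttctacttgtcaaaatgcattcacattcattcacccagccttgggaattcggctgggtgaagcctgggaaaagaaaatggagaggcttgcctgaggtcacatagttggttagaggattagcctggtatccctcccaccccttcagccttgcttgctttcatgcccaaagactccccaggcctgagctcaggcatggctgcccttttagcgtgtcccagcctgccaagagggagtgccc
CLDN7, downstream start, chr17:7262429-7262728, minus strand: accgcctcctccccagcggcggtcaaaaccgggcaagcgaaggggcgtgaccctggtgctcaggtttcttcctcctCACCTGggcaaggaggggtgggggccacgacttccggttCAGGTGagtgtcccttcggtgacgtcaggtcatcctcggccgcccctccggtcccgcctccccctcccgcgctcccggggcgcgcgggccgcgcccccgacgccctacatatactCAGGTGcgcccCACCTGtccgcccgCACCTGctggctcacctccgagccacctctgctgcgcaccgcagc

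The upstream CLDN18 start belongs to the transcript of the stomach isoform, claudin-18.2, and the downstream one to that of the lung isoform, claudin-18.1. Their values cannot be separated here, because the table has 1 count per gene. The stomach window held a CDX core 119 bases before the start, GATA cores at 136 and 121 bases, and an E-box at 99 bases. The CDX core and the nearer GATA core share letters. The lung window held none of these. In CLDN2 the upstream window held 1 CDX core, 73 bases before the start, and the downstream window held no match. The downstream CLDN7 window held 5 E-boxes, and the upstream CLDN7 window, which is not shown, held no match.

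No window of CLDN23 was used here. Over the 13 windows of the other 9 claudins, 3 held a CDX core, 1 a GATA core, 3 an E-box and 0 the TATA box TATAAA, which contains a CDX core. Among all 35116 windows of the same table the shares were 34.9% for the CDX core, 10.3% for the GATA core, 20.6% for the E-box and 11.5% for the TATA box. A match describes these letters and does not show a bound site.

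The resistant library held 34507480 counts and the parental library 34572931, with 26382 resistant and 18934 parental counts in the 10 claudins. The call used throughout needs 50 counts in whichever library is higher and a 2-fold ratio after TMM scaling with a prior of 1 count. Log2 ratios include that prior and printed folds and their intervals do not, so the log2 of a fold can differ from the log2 ratio where counts are low. Of 15102 genes at that minimum, 906 (6.00%) were higher and 1352 (8.95%) lower in the resistant library. Each group is a single library without replicates, hence no test was run, and each interval given is an exact 95% interval that covers counting error only. In such bulk samples fewer cells of a type and less RNA per cell cannot be told apart.

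By that rule, of the 7 claudins at the minimum, 0 were higher and 2 were lower, CLDN2 and CLDN18. The shares among all genes at the minimum were 6.00% higher and 8.95% lower. Another 5 lay within 2-fold (CLDN1, CLDN3, CLDN7, CLDN12 and CLDN23), and CLDN4, CLDN10 and CLDN15 did not reach 50 counts in either library. CLDN18 passed the minimum only through the parental library, in which it was higher, with 88 counts against 27. CLDN1, CLDN2, CLDN3, CLDN7, CLDN12 and CLDN23 had at least 50 counts in both libraries. Because the minimum applies to the higher library, other genes named below can pass it through 1 library only. All 5 general epithelial claudins had a log2 ratio above 0, both intestinal claudins one below 0 (CLDN15 with an interval that includes equal levels), and the gastric claudins went opposite ways. The median log2 ratio was 0.32 over all 10 members and 0.48 over the 7 at the minimum, against 0.06 over all genes at the minimum.

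**Figure D1:**
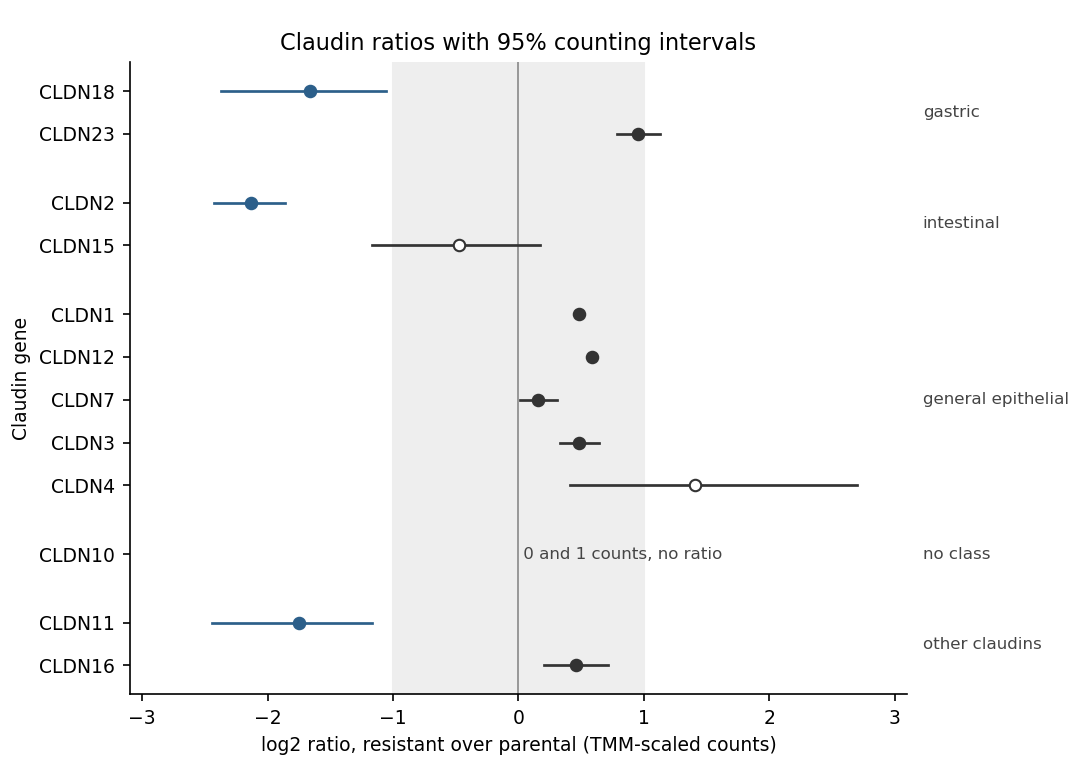
Log2 ratio of the resistant over the parental library for each claudin (TMM-scaled counts), with the exact 95% counting interval as a bar; the grey band marks ratios within 2-fold, blue marks genes at least 2-fold lower, and open points mark genes under 50 counts in both libraries. CLDN18 at -1.66, CLDN2 at -2.13 and CLDN11 at -1.75 lie left of the band, and CLDN1, CLDN3, CLDN7, CLDN12, CLDN16 and CLDN23 lie inside it.

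CLDN18 (ENSG00000066405), the claudin of the stomach lining, had 27 counts in the resistant library, against 88 in parental cells. Its level was 0.092 FPKM in the resistant library, against 0.289 FPKM in the parental library, low in both. The difference was 3.24-fold, lower in resistant cells, with an interval of 2.08-fold to 5.19-fold. On the log2 scale the ratio was -1.66, at percentile 2.90 of the genes at the minimum. With 88 counts at most, CLDN18 would drop out of the count at a minimum of 200, and it would not be called at 4-fold.

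CLDN23 (ENSG00000253958), a claudin known from the stomach and from surface cells of the intestine, had a ratio on the other side of 0. It had 849 counts in the resistant library against 440 in the parental library, which is 4.60 FPKM in resistant and 2.29 FPKM in parental cells. The ratio was 1.94-fold (interval 1.73 to 2.18), or 0.96 on the log2 scale, just inside the 2-fold size. Under upper quartile scaling it was 1.03, and the deposited FPKM values also put CLDN23 past 2-fold. The intervals of CLDN18 and CLDN23 each exclude equal levels, on opposite sides, so the 2 genes of this class differed in opposite directions beyond counting error.

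CLDN2 (ENSG00000165376), which forms a cation pore and marks leaky epithelia such as intestinal crypts, had the largest difference among the members with at least 50 counts. It had 128 counts in resistant cells and 567 in parental cells, or 0.515 FPKM in resistant and 2.19 FPKM in parental cells. It was 4.40-fold lower in the resistant library (interval 3.63 to 5.37), a log2 ratio of -2.13. In the resistant library CLDN2 lay near the middle of all genes by FPKM, at percentile 53.7, against percentile 68.6 in the parental library.

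CLDN15 (ENSG00000106404), the other cation pore former and a claudin of the small intestine, was low in both libraries. It had 34 counts in the resistant library, against 48 in parental cells, or 0.187 FPKM in resistant and 0.254 FPKM in parental cells. The log2 ratio of -0.48 has a counting interval for the fold of 0.446 to 1.13, which includes equal levels, so a difference was not detectable at this depth.

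CLDN1 and CLDN12 carried most of the claudin signal. CLDN1 (ENSG00000163347), a sealing claudin of skin and many other epithelia, had 11814 counts in the resistant library against 8499 in the parental library, or 39.9 FPKM in resistant and 27.5 FPKM in parental cells. CLDN12 (ENSG00000157224), an unusual claudin that lacks the PDZ-binding end of most others, had 11906 resistant and 7991 parental counts, or 39.0 FPKM in resistant and 25.1 FPKM in parental cells. CLDN1 was 1.40-fold higher in the resistant library (interval 1.36 to 1.44), and CLDN12 was higher by 0.58 on the log2 scale (interval of the fold 1.46 to 1.54). Both intervals exclude equal levels, as did those of 84.9% of all genes at the minimum, and both ratios lie inside the 2-fold band.

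CLDN3 (ENSG00000165215) and CLDN7 (ENSG00000181885) are sealing claudins that most simple epithelia make. CLDN3 had 809 counts in resistant cells and 581 in parental cells, or 7.47 FPKM in resistant and 5.14 FPKM in parental cells, a 1.40-fold higher level (interval 1.26 to 1.56). CLDN7 had 787 resistant and 709 parental counts, or 10.6 FPKM in resistant and 9.17 FPKM in parental cells, a 1.12-fold higher level (interval 1.01 to 1.24). CLDN7 was therefore the member at the count minimum whose libraries lay closest together. In GENCODE it shares 269 of its 2492 exonic bases with AC003688.1, a protein-coding gene on the same strand. AC003688.1 had 1511 resistant and 1553 parental counts, more than CLDN7, and the part of shared reads in the CLDN7 ratio was not tested.

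CLDN4 (ENSG00000189143), a sealing claudin and a known receptor of a bacterial toxin together with CLDN3, was listed far below the other general epithelial claudins. It had 28 counts in the resistant library, against 10 in parental cells, or 0.555 FPKM in resistant and 0.190 FPKM in parental cells. The ratio was 2.82, with a wide interval of 1.33 to 6.50, and the gene did not reach the count minimum. With the library total as an assumed denominator, its counts and FPKM values gave a length 0.324 times its GENCODE exonic length, against 2.57 times for CLDN23. That denominator was not checked, so these factors compare genes with each other only. Whether reads from the rest of the gene were counted was not tested, so these counts do not show that CLDN4 was nearly absent. CLDN10 (ENSG00000134873), known from kidney and from secretory ducts, had 0 counts in the resistant library against 1 in the parental library. A count of 0 allows up to 3 counts, so no fold is given for CLDN10.

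**Figure D2:**
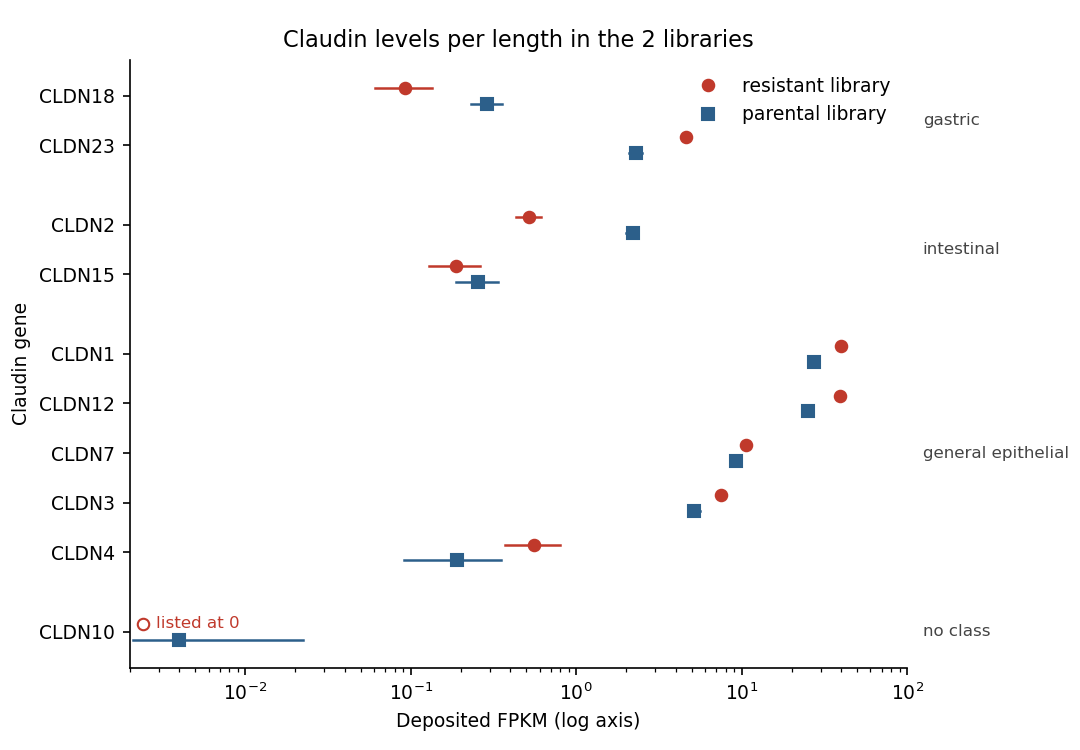
Deposited FPKM of each claudin on a log axis in the resistant library (circles) and the parental library (squares), grouped by class, with bars for the exact 95% counting interval. CLDN1 and CLDN12 lie between 25.1 and 39.9 FPKM, while CLDN4, CLDN15 and CLDN18 stay under 1 FPKM in both libraries and CLDN10 is listed at 0 in the resistant library.

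Ordered by FPKM in the resistant library, the members ran CLDN1, CLDN12, CLDN7, CLDN3, CLDN23, CLDN4, CLDN2, CLDN15, CLDN18 and CLDN10. The counting intervals of CLDN1 and CLDN12 overlapped, as did those of CLDN4 and CLDN2 and those of CLDN15 and CLDN18. In the parental library the first 5 places were the same, followed by CLDN2, CLDN18, CLDN15, CLDN4 and CLDN10. There CLDN23 and CLDN2 had overlapping intervals, and so did CLDN18 with CLDN15 and CLDN15 with CLDN4. CLDN2 thus stood level with CLDN23 in the parental library, at 2.19 against 2.29 FPKM, and far below CLDN23 in the resistant library, at 0.515 against 4.60 FPKM.

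The order depends on the gene lengths behind the FPKM values. Lengths were derived from counts and FPKM values with the library total as an assumed denominator. They came to 2.57 times the GENCODE 29 exonic length for CLDN23, 2.44 times for CLDN1 and 0.324 times for CLDN4. That denominator was not checked, so these factors compare genes with each other and are not true lengths. Counts per GENCODE exonic length left CLDN1 and CLDN12 first and second in both libraries. By that measure CLDN7 ranked 5 in the resistant library, 4 in the parental library, and CLDN4 ranked 9 in both. The ratios between the libraries do not use these lengths.

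Summed over the 10 members, the claudin level was 102.9 FPKM in the resistant library, against 72.1 FPKM in the parental library. In counts the sum was 1.40-fold higher in the resistant library (interval 1.38 to 1.43). The general epithelial claudins held 94.8% of the summed level in the resistant library, against 93.0% in the parental library. CLDN1 alone held 38.7% in the resistant and 38.1% in the parental library, and CLDN12 37.9% in the resistant and 34.8% in the parental library.

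The gastric claudins held 4.56% of the summed level in the resistant library, against 3.57% in the parental library, nearly all of it CLDN23. CLDN18 made up 0.0894% in the resistant and 0.401% in the parental library. The intestinal claudins held 0.682% in the resistant library, against 3.39% in the parental library, mostly CLDN2, at 0.5004% in the resistant and 3.03% in the parental library. The intestinal share was the one that differed most between the libraries.

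Of the other 7 claudin genes in the table, 2 reached 50 counts. CLDN11, a claudin of myelin and of the testis, had 28 counts in resistant cells and 97 in parental cells, 3.44-fold lower (interval 2.24 to 5.44). CLDN16, a claudin of kidney magnesium transport whose gene lies next to CLDN1, had 305 resistant and 223 parental counts, a 1.38-fold higher level (interval 1.15 to 1.64). CLDN6, CLDN9, CLDN14, CLDN22 and CLDN24 had at most 13 counts. CLDN22 and CLDN24, and CLDN6 and CLDN9, are close paralogs that can share reads.

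The claudins were read beside lists of gastric and intestinal genes. These lists were chosen with earlier results of these data known, so their counts describe the listed genes only. Of 17 intestinal genes, 11 were higher by the 2-fold rule and 0 lower, 2 lay within 2-fold and 4 had under 50 counts, beside 6.00% higher and 8.95% lower among all genes at the minimum. VIL1, the brush border protein villin, had 2719 counts in the resistant library, against 170 in parental cells, and FABP2, the intestinal fatty acid binding protein, had 93 in resistant and 0 in parental cells. Set against the floor of 3 counts in the parental library FABP2 was at least 31.2-fold higher, and the lower limit of its counting interval was 24.9-fold. The others higher were CDH17, SI, KRT20, LGALS4, MYO1A, TFF3, REG4, HEPH and ANXA13. CLDN2, at -2.13 on the log2 scale, had a ratio of the opposite sign, while the interval of CLDN15 included equal levels.

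Of 12 gastric genes, 1 was higher, 4 lower, 5 within 2-fold and 2 under the minimum, beside 6.00% higher and 8.95% lower among all genes at the minimum. PGC, the stomach proenzyme progastricsin, had 8 counts in the resistant library against 110 in the parental library, 13.7-fold lower. TFF2, a gastric trefoil peptide, was 4.44-fold lower with 2513 resistant and 11223 parental counts, and MUC5AC, the surface mucin of the stomach, 3.93-fold lower with 1169 resistant and 4622 parental counts. LYZ, lysozyme, was the fourth lower gene, and MUC6, the gland mucin, was 3.37-fold higher with 358 resistant and 107 parental counts. CLDN18 was lower as PGC, TFF2 and MUC5AC were, while CLDN23 was not.

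Among 16 listed regulators of claudin transcription, 12 reached 50 counts, 1 was higher and 1 lower, near the 6.00% higher and 8.95% lower of all genes. CDX2, an intestinal factor that can activate CLDN2, had 1042 counts in resistant cells and 145 in parental cells, 7.23-fold higher, while CLDN2 was lower. ELF3, an epithelial factor of the ETS family, had 4168 resistant and 8640 parental counts, 2.06-fold lower, and its log2 ratio of -1.04 became -0.97 under upper quartile scaling. The claudin repressor SNAI2 had 92 resistant and 46 parental counts, a fold of 2.01 without the prior and a log2 ratio of 0.99 with it, so it was not called. The repressor ZEB1 went the other way, with 56 resistant and 91 parental counts. Its log2 ratio of -0.68 lay within 2-fold (interval of the fold 0.436 to 0.874). SNAI1 had 6 resistant and 0 parental counts, and ZEB2, another claudin repressor, had no row, which is read as 0 counts.

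Claudins work with other junction proteins, and 33 of 36 listed partner genes reached 50 counts. Of these 1 was at least 2-fold higher, 4 were lower and 28 lay within 2-fold, against 6.00% higher and 8.95% lower among all genes. All 8 polarity genes lay within 2-fold. The median log2 ratio was -0.32 over the 36 partner genes and -0.26 over the 33 at the minimum, against 0.06 over all genes at the minimum. Of the 36, 23 had a ratio below 0, while percentile 48.5 of all genes at the minimum lay at -0.02.

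Among transmembrane partners, OCLN, which encodes occludin, had 4568 counts in the resistant library, against 3933 in parental cells, 1.17-fold higher. EPCAM, whose protein binds claudin-7, had 76990 resistant and 43076 parental counts, 1.80-fold higher. ESAM, an adhesion molecule better known from endothelium, had 70 resistant and 213 parental counts, 3.02-fold lower. The transmembrane genes were thus mixed around small ratios, with ESAM the 1 member past 2-fold.

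Among scaffold genes 3 were lower and 1 higher, beside 8.95% lower and 6.00% higher among all genes at the minimum. The median log2 ratio was -0.63 over the 15 and -0.60 over the 14 at the minimum, against 0.06 over all genes. MAGI1, a large scaffold at junctions, had 2763 counts in the resistant library against 8775 in the parental library, 3.15-fold lower (interval 3.02 to 3.29). AMOT, angiomotin, had 44 resistant and 343 parental counts, 7.74-fold lower, while its relative AMOTL1 had 6301 resistant and 2174 parental counts, 2.92-fold higher. CGNL1, paracingulin, was 2.46-fold lower with 67 resistant and 166 parental counts, whereas its relative CGN, cingulin, was 1.33-fold higher with 1307 resistant and 986 parental counts. TJP1 and TJP3 encode ZO proteins, which anchor the claudin tail to actin. Their log2 ratios were -0.47 for TJP1 and -0.58 for TJP3, opposite in sign to the general epithelial claudins and within 2-fold.

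**Figure D3:**
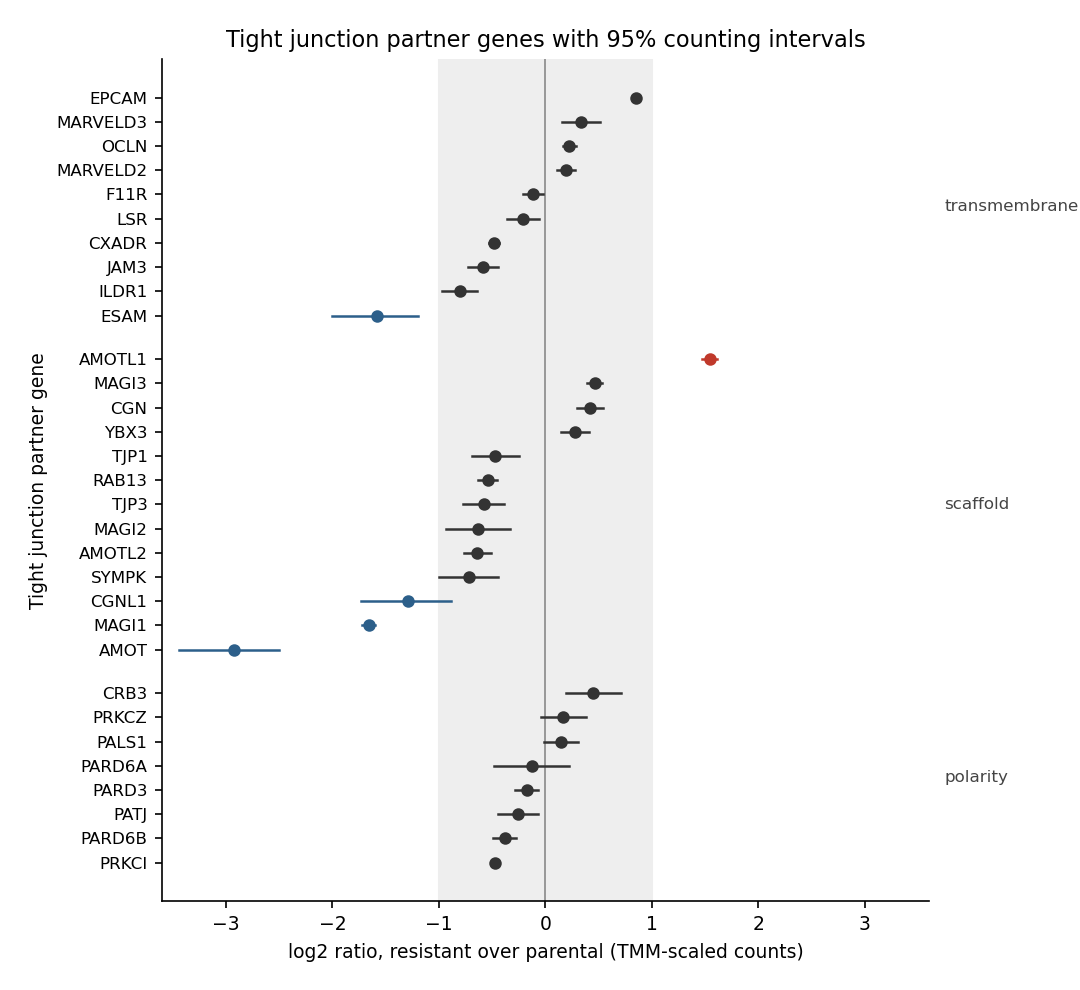
Log2 ratio of the resistant over the parental library (TMM-scaled counts) for most of the 33 partner genes with at least 50 counts, sorted within transmembrane, scaffold and polarity genes, with exact 95% counting intervals; the grey band marks ratios within 2-fold, red a higher and blue a lower gene. AMOTL1 at 1.54 lies right of the band, and ESAM, CGNL1, MAGI1 and AMOT lie left of it.

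Epithelial markers were present and other lineages nearly absent. KRT8, KRT18, KRT19, EPCAM and CDH1 summed to 168925 counts in resistant cells and 112400 in parental cells, and each had a log2 ratio between 0.32 and 0.85. The 4 leukocyte markers summed to 26 resistant and 24 parental counts, the 4 fibroblast markers to 11 resistant and 1 parental, and the 4 endothelial markers, among them CLDN5, to 3 resistant and 0 parental. THY1, COL1A2, PECAM1, CDH5 and CLDN5 had no row. The 4 neural and muscle markers summed to 556 resistant and 509 parental counts, nearly all from MBP, a myelin protein, with 547 resistant and 490 parental. None of the 5 epithelial markers passed 2-fold, and none of the 5 general epithelial claudins did so at the count minimum. The 4 of these claudins with at least 50 counts had log2 ratios of 0.16 to 0.58, beside the 0.32 to 0.85 of the epithelial markers, whose part in the claudin ratios was not tested.

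By position, the claudins were set beside 10 protein-coding genes with at least 50 counts, the nearest 5 on each side in GENCODE order. Other members were left out, and distance was not limited, so some of these neighbours can lie far away. CLDN18 on chromosome 3 had neighbours with a median log2 ratio of -0.28, from -1.22 to 0.40, and itself lay below all of them at -1.66. CLDN2 on chromosome X had neighbours with a median of -0.33, and it too lay below all 10. The lowest of these neighbours was MORC4, with 2591 counts in the resistant library, against 8175 in parental cells. MORC4 lies on the other strand, and in GENCODE its span overlaps that of CLDN2 without shared exons. RIPPLY1, also on the other strand, shares 341 exonic bases with CLDN2 and had 0 resistant and 6 parental counts.

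CLDN3 and CLDN4 lie close together on chromosome 7 and share their neighbours. These had a median log2 ratio of 0.48, close to CLDN3 at 0.49. Of the 10, 3 were at least 2-fold higher, beside 6.00% of all genes at the minimum. CLDN1 at 0.48 lay above 9 of its 10 neighbours, whose median was -0.61. CLDN23 at 0.96 had neighbours with a median of 0.33, from DEFB1 at -2.17 to MFHAS1 at 1.08. Of these 10, 1 was at least 2-fold higher and 2 were at least 2-fold lower, beside 6.00% higher and 8.95% lower among all genes. CLDN15 lay among genes with a median of -0.74. CLDN7 at 0.16 was near its neighbours' median of 0.22. CLDN10 lay among genes with a median of -0.29, and shares exons on the other strand with DZIP1, which had 41 resistant and 416 parental counts.

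CLDN12 on chromosome 7 had neighbours from -2.92 to 3.62 with a median of 0.01. The highest was CDK14, with 1622 counts in the resistant library against 132 in the parental library, which shares 201 exonic bases with CLDN12 on the same strand. GTPBP10 shares 347 bases of the 6741 exonic bases of CLDN12 and had 1407 resistant and 1104 parental counts. CLDN12 had more counts than either, and the part of shared reads in its ratio was not tested.

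**Figure D4:**
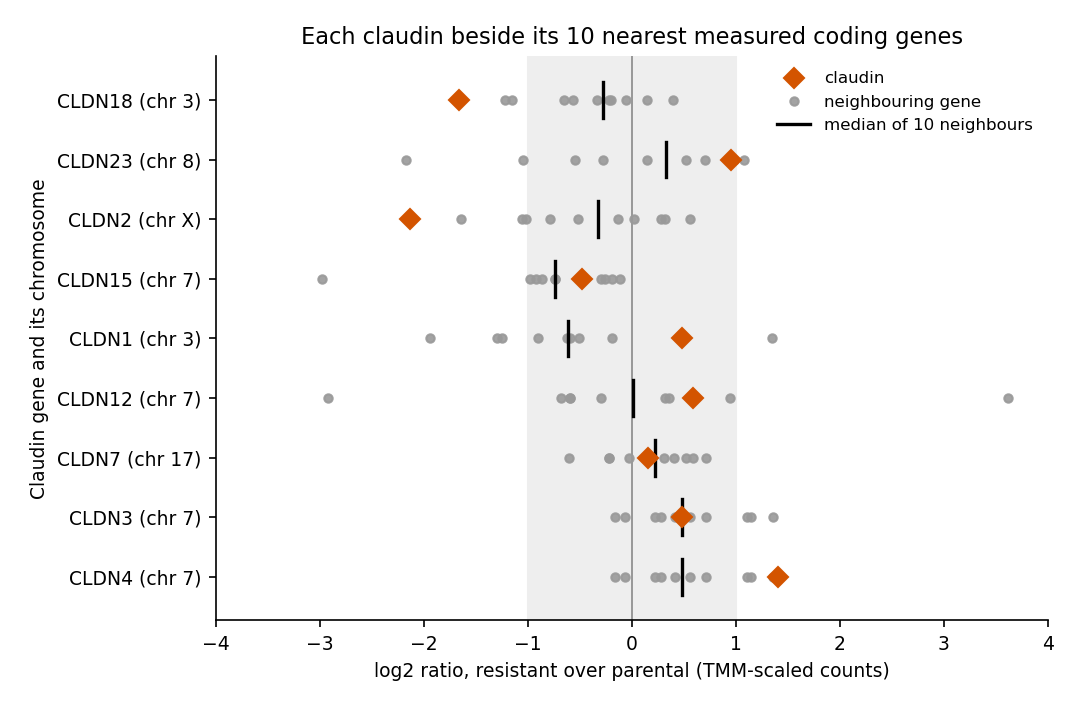
Log2 ratio of the resistant over the parental library (TMM-scaled counts) of 9 claudins (diamonds), with CLDN10 left out. Grey points are the 10 neighbours of each, the nearest 5 measured protein-coding genes on each side. A black line marks the neighbours' median, and the grey band marks ratios within 2-fold. CLDN18 and CLDN2 lie below all their neighbours, while CLDN3 and CLDN7 lie near their neighbours' medians of 0.48 and 0.22.

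Structure differed among the members. CLDN3 and CLDN23 have 1 exon in GENCODE. The GC content of the longest transcript ran from 38.1% in CLDN12, 40.9% in CLDN10 and 41.5% in CLDN1 to 69.2% in CLDN3. The lowest GC content was thus found in the most abundant members, CLDN1 and CLDN12, and also in the least abundant, CLDN10. The members at least 2-fold lower, CLDN2 at 52.6% and CLDN18 at 45.7%, lay between.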

How the data were processed

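The data are 1 table with 2 libraries, 1 resistant and 1 parental. Its counts, as deposited by the authors, are whole numbers per Ensembl gene with no normalization, per the file headers and values. FPKM values also came from the authors, as the file headers name them, and are scaled by gene length and depth. The submitters' processing notes name RSEM 1.2.3 and the build hg19 with no role. Total RNA was made into strand-specific libraries, per the labels' protocols. Whether counting used strand, and which annotation it used, is not given in the sources used here. Overlapping genes are therefore uncertain.

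Symbols came from a gene name table, which matched 29536 of 31845 identifiers. GENCODE 29 describes another build and served for gene order, exons, lengths and GC content, and RefSeq promoter windows carry GRCh38.p14 coordinates. Counts were scaled with TMM factors (edgeR 4.0.16, R 4.3.3), which were 0.998 for the resistant and 1.002 for the parental library. Log2 ratios used a prior of 1 count. Ratio intervals are exact conditional (Clopper-Pearson) 95% intervals, FPKM intervals exact Poisson intervals, and the floor for a count of 0 is 3 counts. Both cover counting error only. No test was run, since each group has 1 library.

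The members, classes, lists and rules were chosen with earlier results of these data known. All members were named, then other claudins at 50 counts or more. Lists name the genes past 2-fold, with values for some, and a few listed genes are counted but not reported here by name. Other genes (OCLN, EPCAM, CGN, TJP1, TJP3, SNAI1, SNAI2, ZEB1, ZEB2 and overlapping or neighbouring genes) were named after their values were seen. Calculations were tested on simulated data. Python 3.11.15 was used with scipy 1.17.1, numpy 2.4.6, matplotlib 3.10.9 and pandas 2.3.3. Alternatives changed the scaling, prior, count minimum, fold size and unit.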

Additional observations from a re-analysis of the deposited data

How the results depend on the processing

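No paired analysis was possible because each group has 1 library. Counts per GENCODE exonic length were chosen after seeing the data. Over 6 alternatives each, 0 of the 10 claudin ratios changed sign. CLDN2 ranged from -2.14 to -2.06 and CLDN18 from -1.68 to -1.53 on the log2 scale, and CLDN4, with few counts, from 1.14 to 1.498. Of 198 values of 33 named genes, 188 stayed within the counting interval, 10 moved outside it and 0 changed sign where called.

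The number of claudins at least 2-fold higher was 1 in place of 0 under upper quartile scaling, with the deposited FPKM values and at 1.5-fold (CLDN23 each time), and also 1 once the minimum was set at 10 counts or dropped (CLDN4). The number lower was 1 in place of 2 at 4-fold or with a minimum of 200 counts, which leave CLDN2. Partner genes higher numbered 2 in place of 1 with no minimum and at 1.5-fold and 0 at 4-fold, and those lower 9 at 1.5-fold and 1 at 4-fold in place of 4. Over all genes, higher and lower numbered 1975 and 2821 when 10 counts sufficed, 474 and 741 when 200 were needed, 5565 and 5887 without a minimum, 2541 and 3209 at 1.5-fold, and 252 and 250 at 4-fold. Changes with the minimum and the fold size follow from those settings by construction, and upper quartile scaling moves the median of all genes by 0.07 on the log2 scale. The deposited FPKM values move that median by 0.05 and put CLDN23 at 1.01 in place of 0.96. The cause of that shift was not tested.

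In counts not per length, the gastric share was 3.32% in the resistant and 2.79% in the parental library, and the general epithelial share 96.1% in the resistant and 94.0% in the parental library. Per GENCODE exonic length, the gastric share was 6.23% resistant and 4.84% parental, the general epithelial share 93.0% resistant and 91.2% parental, and the intestinal share in the parental library 3.93%. Over all claudin genes of the table the general epithelial share was 93.5% resistant and 91.3% parental. The intestinal share stayed lower in the resistant library under each of these. Depth limits CLDN4, CLDN10 and CLDN15.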
